A study of Mus musculus with 12 samples.

Results

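Folates enter intestinal cells through membrane carriers, are held there by the addition of glutamates, and then serve as carriers of one-carbon units. Antifolate drugs such as methotrexate and pemetrexed use the same carriers and the same glutamate-adding enzyme, and act on enzymes that make thymidylate and purines. The genes described here are 8 that encode these steps in the mouse: the carriers Slc46a1 and Slc19a1, the glutamate-adding enzyme Fpgs, the glutamate-removing enzyme Ggh, the thymidylate synthase Tyms, the one-carbon enzymes Shmt1 and Mthfd1, and the purine enzyme Atic. They were chosen by symbol, and each of the 8 matched 1 row among the 55487 rows of the count table.

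RNA was sequenced from freshly isolated crypts and from crypt-derived monolayers of the small intestine (SI) and large intestine (LI) of C57BL/6 mice, described as male or female young adults. There were 4 groups of 3 libraries each. SIcrypt and LIcrypt held crypts taken directly from mice, and SI24h and LI24h held monolayers grown for 24 h in control media. The study's methods for monolayers name the jejunum as the source of SI crypts, released with EDTA, and the large intestine of the same mice as the source of LI crypts, released with collagenase, dispase and DNase followed by EDTA. Each crypt library came from 1 mouse and each monolayer library from pooled wells, and region cannot be told apart from the way its crypts were released. Library totals ranged from 59016196 to 76216530 counts, with a median of 69256790. Values below are normalized counts, which are counts divided by 1 size factor per library, unless another scale is named. A gene was called where edgeR, a test across all genes, gave a Benjamini-Hochberg adjusted p under 0.05 and a difference of at least 2-fold, and "SI culture" and "LI culture" stand for SI24h against SIcrypt and LI24h against LIcrypt.

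The regional labels were checked first. Gata4, a transcription factor of the proximal intestine, had a mean of 11913 ± 931 normalized counts in SIcrypt and 149 ± 70.2 in LIcrypt (SD, n = 3 each), and 8858 ± 191 in SI24h against 198 ± 17.4 in LI24h. Hoxb13, a homeobox gene of the distal gut, had means of 46.3 ± 6.49 in SIcrypt and 24543 ± 6333 in LIcrypt, and 45.0 ± 30.9 in SI24h against 3109 ± 89.5 in LI24h. Of the 10 epithelial markers examined none was at 0 in any group, and Krt8 had the highest counts of them in all 4 groups. Thus each group carried the markers of its labelled region. Of 12 mesenchymal markers, 7 were called lower in SI between crypts and 9 between monolayers, and 0 higher. All tested genes were called at shares of 22.7% and 21.2%. Mean sums over the mesenchymal list were 2339 in SIcrypt, 4785 in LIcrypt, 1972 in SI24h and 5493 in LI24h. Their part in the regional contrasts was not tested.

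Some libraries stood apart from others of their group. The share of mitochondrially encoded counts was 9.16% in SIcrypt replicate 1, against 5.92% and 4.56% in the other SIcrypt libraries, and it was at most 0.750% in every monolayer library. SIcrypt replicate 3 had the highest sum over 8 Paneth cell markers, 1827470 normalized counts against 370545 and 714053, and the lowest sum over 12 SI enterocyte markers, 1116180 against 1779450 and 1640600. LIcrypt replicate 1 had the most Gata4 of its group, 226 normalized counts against 135 and 87.5, and LIcrypt replicate 3 the most Hoxb13, 31592 against 22706 and 19332. Where leaving out SIcrypt replicate 1 or 3, or LIcrypt replicate 3, moved a member across 0.05 or across 2-fold, its value is given below. Leaving out LIcrypt replicate 1 moved none.

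Slc46a1 encodes the proton-coupled folate transporter, the main intestinal carrier of dietary folate, and lies at chr11:78465697-78472059 on the plus strand of GRCm38. Its normalized counts were 4535, 2696 and 2865 in SIcrypt, and 658, 714 and 742 in SI24h. In the LI it had 1360, 889 and 1468 in LIcrypt, and 1775, 1950 and 1927 in LI24h. The 3 SIcrypt libraries were the highest of all 12 and the 3 SI24h libraries the lowest, and no 2 groups overlapped.

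Slc46a1 fell in SI culture, with a log2 fold change of -2.22 (SE 0.23, edgeR adjusted p = 1.82e-05), which is 4.66-fold lower. In LI culture the log2 fold change was 0.65 (SE 0.22, edgeR adjusted p = 0.0264), a difference of less than 2-fold whose adjusted p was as high as 0.0950 under other settings. The order of the regions was opposite in crypts and monolayers. SIcrypt exceeded LIcrypt by 1.48 on the log2 scale (SE 0.23, edgeR adjusted p = 0.000324), whereas SI24h was below LI24h, at -1.39 (SE 0.23, edgeR adjusted p = 0.000599). The difference between those regional contrasts, the interaction of region and preparation, was -2.87 (SE 0.32, edgeR adjusted p = 5.72e-05). Without SIcrypt replicate 1, which had the highest value, the log2 fold change in SI culture was -1.94 and the crypt difference between regions was 1.21, and both were still called.

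Markers of absorptive cells were lower in SI culture, as Slc46a1 was. Of 12 SI enterocyte markers, 8 fell in SI culture by at least 2-fold and 0 rose, and their summed level went from 1779450, 1640600 and 1116180 in SIcrypt to 398434, 389964 and 378823 in SI24h. Anpep had the highest counts of them in SIcrypt and Apoa1 in SI24h, and none of the 12 was at 0 in either group. All 12 were higher in SIcrypt than LIcrypt, as Slc46a1 was, and for the interaction 5 were lower and 1 higher. In LI culture 4 fell and 0 rose, and 11 were higher in SI24h than LI24h and 0 lower, while Slc46a1 was lower in SI24h. Of all tested genes, 26.1% were called in SI culture, 38.0% in LI culture, 22.7% between crypts, 21.2% between monolayers and 20.0% for the interaction. In bulk samples, fewer cells of a type and less RNA per cell cannot be told apart, and the part of cell composition in the change of Slc46a1 was not tested.

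Slc19a1, the reduced folate carrier, is the widely expressed carrier of reduced folates and methotrexate, at chr10:77032241-77061002 on the plus strand. It had 1844, 1600 and 2143 normalized counts in SIcrypt, and 2451, 2772 and 2555 in SI24h. It had 1051, 966 and 830 in LIcrypt, and 2121, 2263 and 2413 in LI24h. The LIcrypt libraries were the lowest of the 12 and the SI24h libraries the highest. In each region all monolayer libraries were above all crypt libraries, and of the groups only SIcrypt and LI24h overlapped.

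Slc19a1 rose in LI culture by 1.30 on the log2 scale (SE 0.10, edgeR adjusted p = 1.71e-08). In SI culture it was higher by 0.51 (SE 0.10, edgeR adjusted p = 0.000458), less than 2-fold. Between crypts it was higher in SI than LI by 1.02 (SE 0.10, edgeR adjusted p = 6.90e-07). This value is so close to 2-fold that 14 of 21 alternative settings put it below that limit. It was as low as 0.90 (without SIcrypt replicate 3), and 0.93 without LIcrypt replicate 3. Its adjusted p, from edgeR or in the DESeq2 setting from DESeq2, stayed under 0.05 in all 21. Between monolayers the difference was 0.22 (SE 0.10, edgeR adjusted p = 0.0787) and did not pass the test, and without SIcrypt replicate 3 it was 0.23 with an edgeR adjusted p of 0.0352. The interaction was -0.79 (SE 0.15, edgeR adjusted p = 0.000356).

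**Figure D1:**
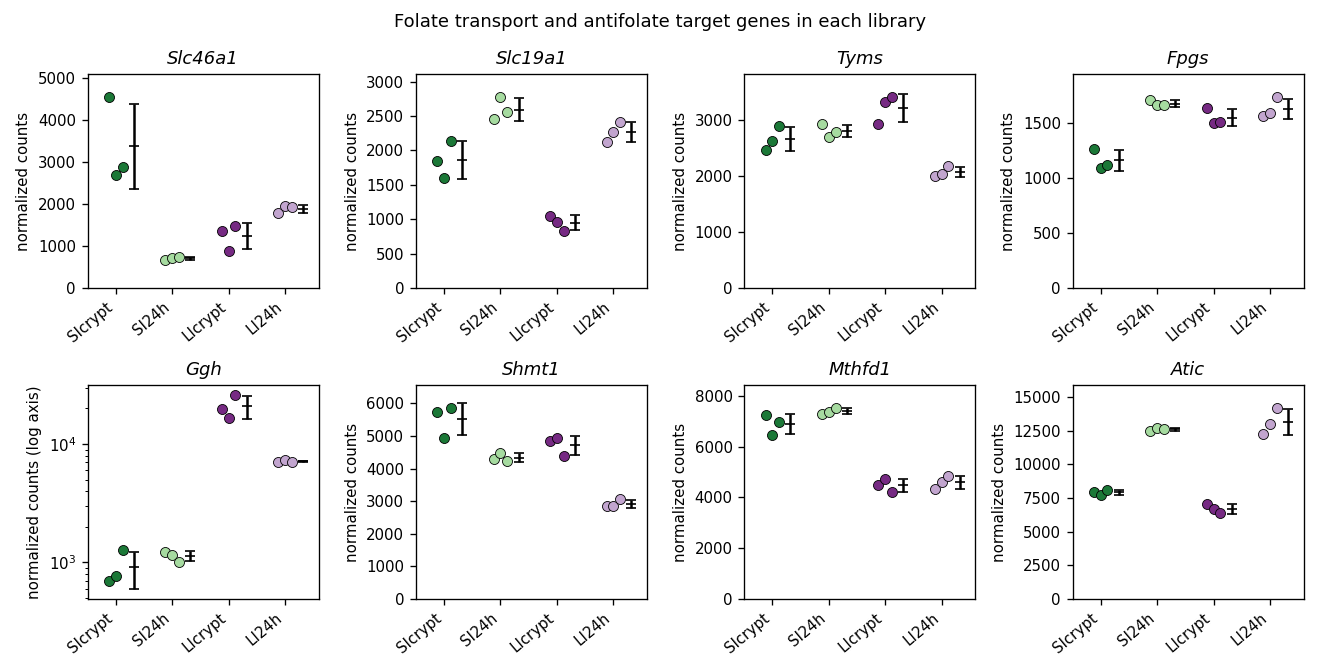
Normalized counts of the 8 genes in every library (filled circles, 3 per group, each offset sideways) with the mean and SD of each group beside them. The axis of Ggh is logarithmic and the others start at 0. Slc46a1 is highest in SIcrypt and lowest in SI24h, and Ggh is highest in LIcrypt.

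The carriers were also set against each other within each library, which does not depend on how libraries are scaled. The log2 ratio of Slc46a1 to Slc19a1 counts was 1.30, 0.75 and 0.42 in SIcrypt, and -1.90, -1.96 and -1.78 in SI24h. It was 0.37, -0.12 and 0.82 in LIcrypt, and -0.26, -0.21 and -0.32 in LI24h. Counts of Slc46a1 exceeded those of Slc19a1 in every SIcrypt library, and the ratio was reversed in every monolayer library of both regions. SI24h and SIcrypt differed by -2.70, LI24h and LIcrypt by -0.62, and SI24h and LI24h by -1.61, each without overlap of the libraries. With each library left out in turn these ran from -2.90 to -2.46, -0.86 to -0.39 and -1.66 to -1.57. In an exact two-sided permutation test each of these 3 had p = 0.1, the smallest that 3 against 3 libraries can give, and p = 0.133 after Benjamini-Hochberg adjustment over the 4 comparisons. The crypt groups overlapped, with a difference of 0.47 (exact permutation p = 0.4) that ran from 0.23 to 0.70. Counts were not divided by gene length, so the sign of a single ratio does not compare numbers of transcripts.

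Fpgs, the folylpolyglutamate synthase, retains folates and antifolates in the cell by adding glutamates to them, and lies at chr2:32682609-32704145 on the minus strand. Its normalized counts were 1268, 1091 and 1122 in SIcrypt, 1711, 1663 and 1664 in SI24h, 1639, 1504 and 1513 in LIcrypt, and 1565, 1592 and 1736 in LI24h. The SIcrypt libraries were below all others, which lay between 1504 and 1736, and LIcrypt and LI24h overlapped. In SI culture Fpgs was higher by 0.57 on the log2 scale (SE 0.07, edgeR adjusted p = 3.79e-06), and in LI culture the value was 0.12 (SE 0.07, edgeR adjusted p = 0.151), which did not pass. The regional contrast of crypts was -0.38 (SE 0.07, edgeR adjusted p = 0.000287). None of these reached 2-fold.

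Ggh, the gamma-glutamyl hydrolase, removes glutamates and is the counterpart of Fpgs. It lies at chr4:20042052-20066750 on the plus strand. Its normalized counts were 692, 770 and 1271 in SIcrypt, 1232, 1164 and 1019 in SI24h, 19859, 16775 and 26054 in LIcrypt, and 7092, 7275 and 7066 in LI24h. Every LI library was above every SI library, and the SI groups overlapped.

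Between crypts Ggh was 22.2-fold lower in SI than LI, at -4.48 on the log2 scale (SE 0.27, edgeR adjusted p = 6.56e-07). In LI culture it fell, at -1.50 (SE 0.23, edgeR adjusted p = 0.000328), and between monolayers the difference of regions was -2.62 (SE 0.25, edgeR adjusted p = 1.83e-05). In SI culture the value was 0.35 (SE 0.24, edgeR adjusted p = 0.249), which did not pass the test. SIcrypt replicate 3, with the highest Paneth marker sum, also had the highest Ggh of its group. Without it the value in SI culture was 0.68 with an edgeR adjusted p of 0.0141, still short of 2-fold. LIcrypt replicate 3 had the highest Ggh of all libraries, and without it the values were -1.30 in LI culture and -4.28 between crypts, both still called.

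All 8 colonocyte markers and all 8 goblet cell markers fell in LI culture, the comparison in which Ggh fell. In SI culture, where Ggh did not pass the test, 5 colonocyte and 3 goblet cell markers fell and 0 rose. Between crypts 6 of each list were lower in SI, as Ggh was, and 0 higher. Between monolayers, where Ggh was lower in SI, 5 colonocyte markers were lower and 1 higher, while 5 goblet cell markers were higher and 1 lower. The summed colonocyte level went from 403041, 490111 and 383117 in LIcrypt to 37923, 38824 and 40236 in LI24h. Of these markers Saa1 had the highest counts in LIcrypt replicates 1 and 3, Car1 in replicate 2, and Aqp8, a water channel, in LI24h. The summed goblet level went from 1196210, 1494260 and 1354360 to 109499, 108778 and 120993, with Clca1 the highest in both. None of these markers was at 0, and their part in the fall of Ggh was not tested. The shares of all tested genes called were 38.0% in LI culture, 26.1% in SI culture, 22.7% between crypts and 21.2% between monolayers.

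The balance of these enzymes was compared within libraries as well. The log2 ratio of Fpgs to Ggh counts was 0.87, 0.50 and -0.18 in SIcrypt, 0.47, 0.51 and 0.71 in SI24h, -3.60, -3.48 and -4.11 in LIcrypt, and -2.18, -2.19 and -2.03 in LI24h. All LI values were far below all SI values. LI24h exceeded LIcrypt by 1.60, SIcrypt exceeded LIcrypt by 4.13, and SI24h exceeded LI24h 6.49-fold, each with an exact permutation p of 0.1, the smallest possible, and an adjusted p of 0.133. SI24h and SIcrypt overlapped, with a difference of 0.17 (exact permutation p = 0.8) that turned to -0.12 without SIcrypt replicate 3.

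**Figure D2:**
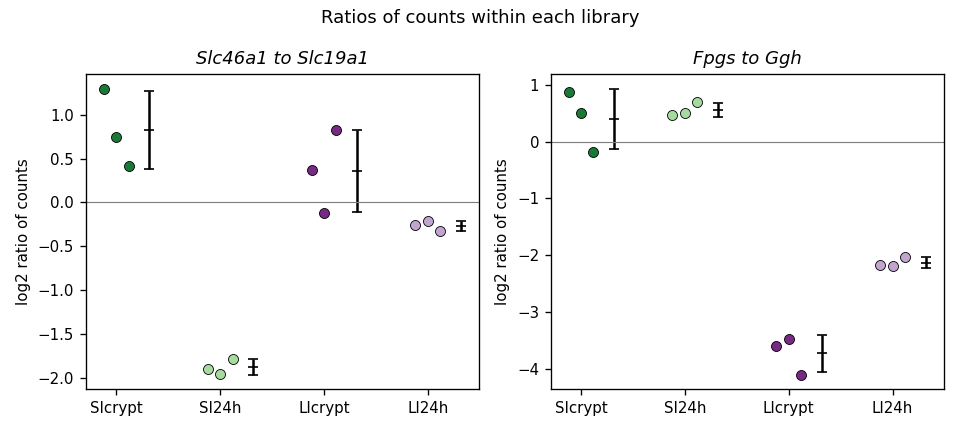
Log2 ratio of the counts of Slc46a1 to Slc19a1 (left) and of Fpgs to Ggh (right) in each library, as circles, with the mean and SD of each group beside them (n = 3). The line at 0 marks equal counts. SI24h has the lowest ratios of the carriers, from -1.96 to -1.78, and LIcrypt the lowest ratios of the enzymes, from -4.11 to -3.48.

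Tyms makes thymidylate for DNA synthesis and is a target of pemetrexed and of fluorouracil, and lies at chr5:30058202-30073617 on the minus strand. Its normalized counts were 2470, 2623 and 2904 in SIcrypt, 2927, 2703 and 2791 in SI24h, 2930, 3320 and 3412 in LIcrypt, and 2010, 2045 and 2177 in LI24h. LI24h was lowest without overlap, and SIcrypt and SI24h overlapped. In LI culture Tyms was lower, at -0.59 on the log2 scale (SE 0.08, edgeR adjusted p = 3.02e-06), and in SI culture the value of 0.11 (SE 0.07, edgeR adjusted p = 0.227) did not pass. Without SIcrypt replicate 3 the SI value was 0.18 with an edgeR adjusted p of 0.0497. Between crypts it was -0.23 (SE 0.07, edgeR adjusted p = 0.0149), with an adjusted p of 0.0766 without SIcrypt replicate 1 and 0.0687 without LIcrypt replicate 3. Between monolayers Tyms was higher in SI than LI by 0.46 (SE 0.08, edgeR adjusted p = 7.25e-05), under 2-fold. The interaction was 0.70 (SE 0.11, edgeR adjusted p = 5.58e-05), also under 2-fold.

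Genes of cell division are given beside Tyms, since it serves DNA synthesis. Of 12 S phase and mitosis markers, 4 rose in LI culture by at least 2-fold and 0 fell, 10 were higher by adjusted p alone, where 68.7% of all tested genes passed in either direction, and their summed level was 58706, 64976 and 60142 in LIcrypt and 97571, 98956 and 105809 in LI24h. In SI culture 1 rose by at least 2-fold and 0 fell, and 11 were higher by adjusted p alone, against 59.6% of all genes. Pcna had the highest counts of the list in every monolayer library, while it was Pcna or Top2a in SIcrypt and Top2a, Pcna or Mki67 in LIcrypt, by library, and none was at 0. With the 2-fold minimum, 38.0% of all tested genes were called in LI culture and 26.1% in SI culture. The part of these markers in the values of Tyms was not tested.

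Shmt1, the cytosolic serine hydroxymethyltransferase, provides one-carbon units for thymidylate synthesis and lies at chr11:60788104-60811718 on the minus strand. It was lower in monolayers than in crypts of the same region, with mean normalized counts of 5508 ± 491 in SIcrypt and 4331 ± 132 in SI24h, and 4719 ± 295 in LIcrypt and 2917 ± 117 in LI24h (SD, n = 3 each). The log2 fold changes were -0.31 in SI culture (SE 0.07, edgeR adjusted p = 0.000702) and -0.65 in LI culture (SE 0.07, edgeR adjusted p = 2.55e-07). Mthfd1, the trifunctional enzyme that interconverts one-carbon folates (chr12:76255298-76319803, plus strand), was higher in SI than LI in both preparations. Its means were 6892 ± 408 in SIcrypt and 7393 ± 116 in SI24h, and 4466 ± 249 in LIcrypt and 4602 ± 258 in LI24h. The regional contrast was 0.67 in crypts (SE 0.06, edgeR adjusted p = 7.95e-08) and 0.71 in monolayers (SE 0.06, edgeR adjusted p = 3.95e-08), both under 2-fold. In culture its values were 0.14 in SI (SE 0.06, edgeR adjusted p = 0.0555) and 0.09 in LI (SE 0.06, edgeR adjusted p = 0.188). The SI value was 0.17 with an edgeR adjusted p of 0.0291 without SIcrypt replicate 1, and 0.14 with 0.0447 without LIcrypt replicate 3.

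Atic carries out the last steps of purine synthesis and uses a folate cofactor, and lies at chr1:71557150-71579631 on the plus strand. Its libraries held 7926, 7733 and 8092 normalized counts in SIcrypt, 12481, 12702 and 12637 in SI24h, 7048, 6639 and 6344 in LIcrypt, and 12234, 12963 and 14180 in LI24h. All 6 monolayer libraries were above all 6 crypt libraries. The log2 fold change was 0.71 in SI culture (SE 0.05, edgeR adjusted p = 1.36e-08) and 1.02 in LI culture (SE 0.06, edgeR adjusted p = 7.68e-11). The LI value was just past 2-fold and was below it, down to 0.89, in 12 of 21 alternative settings (0.99 without LIcrypt replicate 3), with an adjusted p under 0.05 in all of them. Between monolayers the difference was -0.03 (SE 0.05, edgeR adjusted p = 0.693). Between crypts Atic was higher in SI by 0.29 (SE 0.05, edgeR adjusted p = 0.000317). The interaction was -0.32 (SE 0.08, edgeR adjusted p = 0.00317). It passed the test under some other settings but not all, with an adjusted p (edgeR or DESeq2) of up to 0.159. The crypt difference and the interaction were both under 2-fold.

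Counted together, 1 of the 8 genes was called in SI culture (Slc46a1, lower), where 26.1% of the 19581 genes tested were called by edgeR with a Benjamini-Hochberg adjusted p under 0.05 and a change of at least 2-fold. In LI culture 3 were called, 2 higher (Slc19a1, Atic) and 1 lower (Ggh), against 38.0% of all genes. Between crypts 3 were called, 2 higher in SI (Slc46a1, Slc19a1) and 1 lower (Ggh), against 22.7%. Between monolayers 2 were lower in SI (Slc46a1, Ggh) and 0 higher, against 21.2%. The interaction called 2, Slc46a1 and Ggh, against 20.0%. With 8 genes, these counts lie near the shares of all genes, and nothing particular to the genes is read from them.

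By adjusted p alone, with no minimum change, the genes past it were 5 of 8 in SI culture, 6 of 8 in LI culture, 8 of 8 between crypts, 5 of 8 between monolayers and 7 of 8 for the interaction. The shares of all tested genes by that rule were 59.6%, 68.7%, 53.9%, 51.8% and 46.3%, in the same order. The median log2 fold change of the 8 genes was 0.24 in SI culture and 0.10 in LI culture, where the medians of all tested genes were -0.05 and -0.05.

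Levels of the 8 genes were ranked after division by length, as TPM, in which counts per base of gene are scaled to the same sum in every library, with the union of each gene's exons as its length. In SIcrypt the order of means was Mthfd1 (54.7), Shmt1 (50.0), Slc46a1 (38.4), Atic (35.0), Ggh (16.4), Tyms (15.5), Slc19a1 (14.1) and Fpgs (10.8), and only Atic and Ggh, and Slc19a1 and Fpgs, were neighbours whose libraries did not overlap. In SI24h Mthfd1 led with 72.3 TPM, then Atic (68.5) and Shmt1 (48.4), and Slc46a1 was lowest at 9.94, while Ggh and Slc19a1, and Tyms and Fpgs, overlapped. In LIcrypt Ggh led with 417 TPM, against 47.8 for Shmt1, the next in order, and Slc19a1 was lowest at 8.04, and of the neighbours only Fpgs and Slc46a1 overlapped. In LI24h Ggh was again first with 165 TPM and Tyms last with 15.4, and no neighbours overlapped. With the length of the longest coding transcript in place of the exon union, an alternative chosen after the data were seen, Atic moved to the first place in SIcrypt, SI24h and LI24h, and Slc46a1 remained lowest in SI24h. Ggh moved from place 5 to 8 in SIcrypt, 4 to 7 in SI24h and 1 to 2 in LI24h, and remained first in LIcrypt. The places of Atic and Ggh thus rest on which gene length is used. For Atic the exon union is 7985 bases and the longest coding transcript 2845. Differences under 2-fold in culture also depended on the scale. With the exon union Shmt1 had 50.0 TPM in SIcrypt and 48.4 in SI24h, with overlap, and 47.8 in LIcrypt and 34.0 in LI24h, without. Tyms had 15.5 TPM in SIcrypt and 20.0 in SI24h, and Mthfd1 54.7 and 72.3, each without overlap, though neither passed the edgeR test in SI culture.

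Several counts may hold reads of neighbouring genes, since the strand used in counting is not given in the sources used here. Fpgs shares 61 exonic bases with Eng on the opposite strand and 137 with Mir8093, a microRNA gene on its own strand. Shmt1 shares 184 bases with Smcr8 and Mthfd1 shares 37 with a noncoding gene, both on the opposite strand. Slc46a1, Slc19a1, Tyms, Ggh and Atic share none with another annotated gene.

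Of 4 other folate carriers 2 could be tested. Folr1, a folate receptor, had 174, 133 and 99.7 normalized counts in SIcrypt and 3.84, 5.34 and 0 in SI24h, and it fell in both regions, at -5.38 in SI culture (SE 0.67, edgeR adjusted p = 3.70e-06) and -2.44 in LI culture (SE 0.71, edgeR adjusted p = 0.00643). With each library left out in turn, these ran from -6.01 to -4.77 in SI culture and from -4.11 to -1.995 in LI culture, and all were called. Its level was at most 7.91 normalized counts in any monolayer library, so its folds are imprecise. Immune markers fell beside it, 10 of 12 in each region (1, Cd68, rose), with sums of 14060, 13330 and 9296 in SIcrypt, 955, 895 and 789 in SI24h, 3402, 2665 and 3022 in LIcrypt, and 587, 701 and 534 in LI24h. Ptprc had the highest counts of them in every crypt library and Cd68 in every LI24h library. Laptm5 had the highest mean in SI24h, and none was at 0 in a whole group. Other markers fell too and 0 rose: in SI culture 8 of 12 SI enterocyte, 5 of 8 colonocyte and 3 of 8 goblet cell markers. In LI culture 4, 8 and 8 fell, in the same order. The shares of all tested genes called were 26.1% and 38.0%. The part of any of these lists in the fall of Folr1 was not tested. Folr2 and Izumo1r had too few counts to be tested. Slc25a32, the mitochondrial folate carrier, was higher in monolayers by 0.23 in SI (SE 0.06, edgeR adjusted p = 0.00604) and 0.71 in LI (SE 0.06, edgeR adjusted p = 4.73e-08), less than 2-fold in each.

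Other genes of the thymidylate cycle surround Tyms. Dctd, the deoxycytidylate deaminase, rose in both regions, by 1.27 in SI culture (SE 0.12, edgeR adjusted p = 1.32e-07) and 1.76 in LI culture (SE 0.12, edgeR adjusted p = 1.90e-09). Tk1, Dut and Dtymk, which salvage or process thymidine nucleotides, differed by less than 2-fold in all 4 pairwise comparisons.

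Among pumps that can export antifolates, of 6 genes, 4 rose in SI culture and 0 fell, and 3 rose in LI culture and 1 fell. Abcc1 rose by 2.56 in SI culture (SE 0.07, edgeR adjusted p = 1.75e-13), and Abcc4 by 2.39 in LI culture (SE 0.06, edgeR adjusted p = 1.09e-14). Abcg2 fell in LI culture, at -1.75 (SE 0.07, edgeR adjusted p = 3.26e-12). Abcc2, an apical pump, was far higher in SI than LI, with means of 13437 ± 2821 in SIcrypt and 163 ± 90.2 in LIcrypt, and 15652 ± 305 in SI24h and 279 ± 37.0 in LI24h (SD, n = 3 each).

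Serine is a main source of one-carbon units. All 3 serine synthesis genes rose in both regions, with Psat1 at 3.82 in SI culture (SE 0.13, edgeR adjusted p = 1.38e-10) and 3.16 in LI culture (SE 0.13, edgeR adjusted p = 2.55e-10). Of 11 mitochondrial one-carbon enzymes, 4 rose and 1 fell in SI culture, and 4 rose and 3 fell in LI culture. Aldh1l2 rose by 4.01 in SI culture (SE 0.24, edgeR adjusted p = 1.09e-09) and Mthfd2 by 2.92 in LI culture (SE 0.23, edgeR adjusted p = 2.48e-06). Sardh fell in SI culture, at -3.73 (SE 0.52, edgeR adjusted p = 3.13e-05), and Amt in LI culture, at -3.45 (SE 0.23, edgeR adjusted p = 1.06e-09). Sardh was higher in SIcrypt than LIcrypt by 2.13 (SE 0.47, edgeR adjusted p = 0.00159), and Amt was higher in SI24h than LI24h by 2.85 (SE 0.23, edgeR adjusted p = 3.10e-08).

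The cytosolic enzyme Aldh1l1, which oxidizes formyl-folate, fell in both regions, at -2.12 in SI culture (SE 0.08, edgeR adjusted p = 3.46e-12) and -4.70 in LI culture (SE 0.09, edgeR adjusted p = 9.99e-16). The methionine cycle list also holds enzymes linked to the cycle, such as Cbs. Cbs had means of 115 ± 24.6 in SIcrypt and 4341 ± 416 in LIcrypt (SD, n = 3 each). It rose in SI culture by 2.08 (SE 0.12, edgeR adjusted p = 6.29e-10) and fell in LI culture, at -1.16 (SE 0.10, edgeR adjusted p = 2.36e-08). Mtrr rose in LI culture by 1.34 (SE 0.09, edgeR adjusted p = 1.20e-09). Between monolayers Ahcy was higher in SI by 1.07 (SE 0.06, edgeR adjusted p = 5.25e-10) and Cbs lower, at -1.95 (SE 0.11, edgeR adjusted p = 2.69e-10).

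Purine synthesis, to which Atic belongs, and pyrimidine synthesis supply nucleotides. Of 12 other purine synthesis genes, 3 rose and 1 fell in SI culture, and 5 rose and 1 fell in LI culture. Impdh1 rose in SI culture by 1.34 (SE 0.08, edgeR adjusted p = 4.82e-10), and Adss in LI culture by 2.13 (SE 0.06, edgeR adjusted p = 7.42e-14). Paics was lower in SI24h than LI24h, at -1.06 (SE 0.07, edgeR adjusted p = 4.21e-09), and at -0.99 without LI24h replicate 3 it was not called. Of 8 genes for pyrimidines and deoxynucleotides, 3 rose in SI culture and 5 in LI culture, and 0 fell in either. Ctps rose by 1.44 in SI culture (SE 0.08, edgeR adjusted p = 2.34e-10) and 2.34 in LI culture (SE 0.08, edgeR adjusted p = 4.23e-13).

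Between regions, Abcc4 was lower in SI than LI, at -1.71 in crypts (SE 0.06, edgeR adjusted p = 3.12e-12) and -1.85 in monolayers (SE 0.06, edgeR adjusted p = 5.91e-13). Impdh1, which makes guanine nucleotides, was lower in SI crypts, at -1.03 (SE 0.08, edgeR adjusted p = 1.51e-08), and at -0.95 without SIcrypt replicate 2 and -0.96 without LIcrypt replicate 2 it was not called. These contrasts share their crypt or monolayer libraries with the comparisons in culture. In monolayers Aldh1l1 was higher in SI by 2.52 (SE 0.08, edgeR adjusted p = 1.23e-12) and Psph, the last enzyme of serine synthesis, by 1.62 (SE 0.08, edgeR adjusted p = 5.88e-11).

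Of the 63 other genes of the pathway 59 were tested, and 21 rose and 6 fell in SI culture, while 22 rose and 11 fell in LI culture. Of all 19581 genes 26.1% and 38.0% were called there, 1902 higher and 3208 lower in SI culture, and 2832 higher and 4610 lower in LI culture, and the counts of the single lists above stand against the same shares. Between crypts 5 were higher in SI and 7 lower, against 22.7% of all genes, and between monolayers 8 were higher and 3 lower, against 21.2%. Nothing particular to the pathway is read from the regional counts. The median log2 fold change of the tested genes was 0.60 in SI culture and 0.56 in LI culture, where the medians of all tested genes were -0.05 and -0.05.

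**Figure D3:**
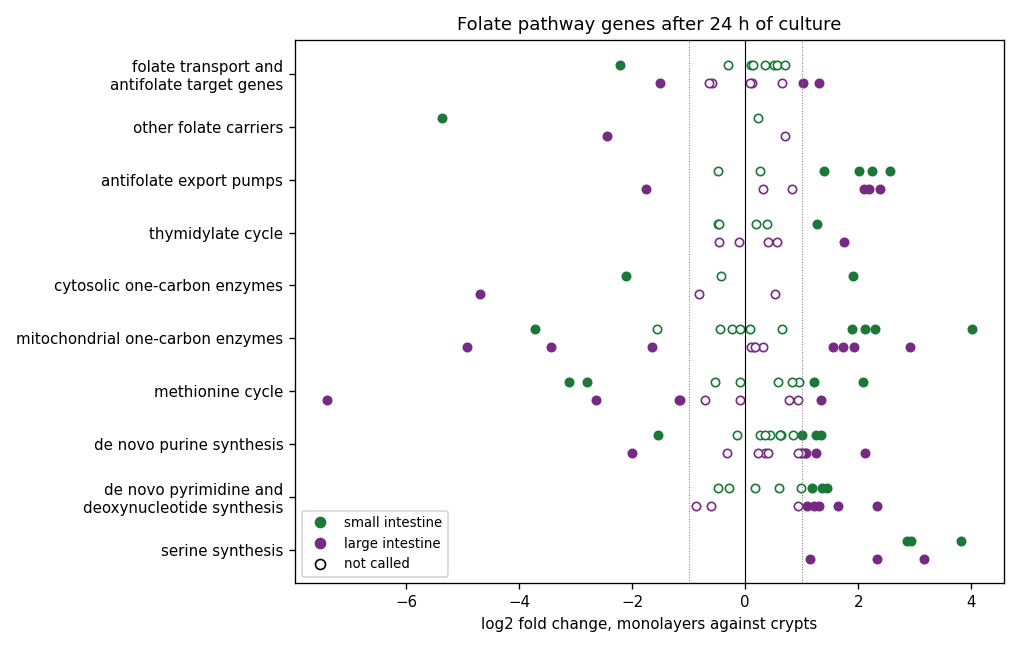
Log2 fold change of monolayers against crypts for each tested gene, with the gene groups on the vertical axis, SI culture in green and LI culture in purple. Filled circles were called (edgeR adjusted p under 0.05 and at least 2-fold, dotted lines at -1 and 1) and open circles were not. All 3 serine synthesis genes lie to the right in both regions, and Slc46a1, at -2.22, is the lowest of the folate transport and antifolate target genes.

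The genes whose log2 CPM (counts scaled to library size) were most like Slc46a1 over the 12 libraries, among 8949 genes searched, were Trpm7 (Pearson's r = 0.94), Tmem87b (0.94) and Chd3 (0.93). For Slc19a1 they were Pabpc1 (0.98), Wee1 (0.98) and Clspn (0.98), and for Tyms they were Erg28 (0.98), Napepld (0.97) and Mrpl57 (0.97). These are descriptions over 12 libraries in 4 groups. Chd3 had means of 7193 ± 845 in SIcrypt and 3066 ± 33.9 in SI24h, and Wee1 had 747 ± 85.1 in LIcrypt and 1701 ± 187 in LI24h (SD, n = 3 each).

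Promoters were taken from RefSeq on GRCm38.p6, each of 300 bases around the start of a gene, and 7 of the 8 genes matched an entry. Ggh was not among them. The carriers are shown 5′ to 3′ since they moved in different ways, and Atic since it and Slc19a1 were the members called higher in LI culture. They come from the plus strand of chr11:78465451-78465750 for Slc46a1, chr10:77032489-77032788 and chr10:77032962-77033261 for the 2 starts of Slc19a1, and chr1:71556906-71557205 for Atic. Capitals mark matches, on either strand, to 4 motifs chosen after the promoters had been seen. These were the NRF1 motif (GCGCA, any base, GCGC), the E box (CACGTG), an E2F motif (GGCGGGAA) and the CCAAT box (CCAAT), and none overlapped another in the promoters shown.

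Slc46a1: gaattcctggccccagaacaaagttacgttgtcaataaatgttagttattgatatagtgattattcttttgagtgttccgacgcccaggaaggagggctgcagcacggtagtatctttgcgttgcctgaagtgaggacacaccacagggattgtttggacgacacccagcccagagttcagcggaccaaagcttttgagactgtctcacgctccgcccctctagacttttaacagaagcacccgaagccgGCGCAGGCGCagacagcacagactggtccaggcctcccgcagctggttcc

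Slc19a1, first start: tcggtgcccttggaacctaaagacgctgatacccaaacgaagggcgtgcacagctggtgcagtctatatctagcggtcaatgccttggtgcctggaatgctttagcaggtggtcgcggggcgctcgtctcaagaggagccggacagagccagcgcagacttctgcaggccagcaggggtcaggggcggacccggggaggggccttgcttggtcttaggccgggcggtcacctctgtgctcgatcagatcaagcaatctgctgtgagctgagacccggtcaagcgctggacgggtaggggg

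Slc19a1, second start: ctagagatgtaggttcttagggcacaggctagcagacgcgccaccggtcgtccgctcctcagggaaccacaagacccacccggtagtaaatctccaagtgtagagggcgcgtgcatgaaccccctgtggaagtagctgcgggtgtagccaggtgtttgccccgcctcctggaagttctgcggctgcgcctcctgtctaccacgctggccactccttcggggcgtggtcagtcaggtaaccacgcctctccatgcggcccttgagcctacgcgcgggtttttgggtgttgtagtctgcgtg

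Atic: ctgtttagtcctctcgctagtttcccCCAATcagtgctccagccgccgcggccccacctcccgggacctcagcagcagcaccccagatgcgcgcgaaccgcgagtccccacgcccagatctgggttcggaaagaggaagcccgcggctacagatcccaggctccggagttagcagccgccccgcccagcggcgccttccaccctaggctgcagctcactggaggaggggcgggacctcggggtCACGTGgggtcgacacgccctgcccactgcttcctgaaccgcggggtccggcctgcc

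The NRF1 letters were found at Slc46a1 and at 0 of the other genes, and in 4.60% of all 32851 promoters. The E box was found at Tyms and Atic and in 7.15% of promoters, and the E2F letters at Mthfd1 and in 2.19%. CCAAT was found at Fpgs, Shmt1, Mthfd1 and Atic and in 37.4%. Neither promoter of Slc19a1 held any of the 4 motifs. A match is a description of the letters and not of a bound site.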

How the data were processed

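RNA of 12 libraries was sequenced as paired-end reads. Per the study's methods, the authors aligned them to GRCm38 with STAR 2.7.9a and counted them on GENCODE genes with featureCounts 2.0.2. The authors deposited the count of each gene, and a normalized signal for which every library was divided by its own DESeq2 size factor (version given as 3.13). The strand setting and the counting of mates are not given in the sources used here; of genes with 1 to 30 counts, 73.0% to 76.9% per library had even counts, and where both mates were counted a count may exceed the number of fragments. Names, lengths and positions came from an earlier GENCODE release, M21, on the same build, which named 55141 of 55487 rows.

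Counts were tested with edgeR 4.0.16 in R 4.3.3 (filterByExpr, TMM, robust quasi-likelihood fit of 4 group means) with Benjamini-Hochberg adjustment over 19581 genes. This was tested on simulated data with known changes in SI24h only. Those changes were balanced in direction and involved far fewer genes than were called here. The simulation therefore does not cover shifts like those of these data. Alternatives were DESeq2 1.42.0, upper quartile scaling, other filters, halved counts, no mitochondrial genes, only the compared groups, the replicate block and each library left out. Leaving out replicate 1 of both crypt groups, and the longest coding transcript as gene length, were added after the data were seen. Ratios were compared by exact two-sided permutation tests.

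The members and lists were chosen with earlier results of these data known, and the promoter motifs after the promoters had been seen. Named genes were the members, all other carriers and thymidylate genes, and per list and pairwise comparison the strongest called rise and fall among genes whose mean reached 1 CPM. For Slc46a1, Slc19a1 and Tyms the 3 most alike genes were added, searched among those whose mean reached 10 CPM. Marker genes came from the cell type and region lists. Some genes that these rules name are not reported here, and counts over lists include them.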

Additional observations from a re-analysis of the deposited data

Results flagged for a closer look

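For the following genes the regional difference itself differed between monolayers and crypts (edgeR interaction, adjusted p under 0.05 and at least 2-fold, log2 scale, positive where SI against LI was higher in monolayers). Among the folate genes these were Slc46a1 (-2.87) and Ggh (1.85). Folr1 had -2.94 with an adjusted p of 0.0374, which was above 0.05 in 10 of the 19 alternatives that tested it, and which ran from -3.50 to -1.23 with each library left out in turn, with an adjusted p of up to 0.591. Of other pathway genes named above, Sardh (-2.07) and Adss (-1.12) were negative. Those positive were Ahcy (1.07), Abcg2 (1.28), Psph (1.71), Aldh1l1 (2.59), Cbs (3.24), Amt (3.35) and Aldh1l2 (3.69). The causes were not tested. With 3 libraries per group no single library was tested for being an outlier.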

How the results depend on the processing

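Over all alternatives other than dropping the 2-fold minimum, 2162 log2 fold changes of named genes kept their direction and side of the threshold, 50 lost the call and 33 changed sign. Counts of genes called stayed within 1.5 times in 308 cases and not in 4. Those 4 counted all genes called with at least 10 counts in every library, where fewer genes are tested: 3140 in SI culture, 4797 in LI culture, 2606 between crypts and 2442 between monolayers.

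Without a minimum fold change, which admits smaller differences, the counts in SI culture, LI culture, crypts, monolayers and the interaction were 5, 6, 8, 5 and 7 members, 49, 51, 40, 40 and 33 other pathway genes, and 11674, 13445, 10558, 10145 and 9069 of all genes.

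The values that changed sign had not been called. Upper quartile scaling, which moved the median of all genes in LI culture from -0.05 to -0.17, gave -0.0012 for Fpgs and -0.029 for Mthfd1 there, and interactions of 0.067 for Tk1 and 0.057 for Dut. These interactions were 0.019 and 0.0088 with no filter, 0.067 and 0.058 without mitochondrial genes, and 0.0076 and 0.036 without replicate 1 of both crypt groups. The cause was not tested. With each library left out in turn, values ran from -0.0031 to 0.15 for Fpgs and -0.025 to 0.13 for Mthfd1 in LI culture, -0.047 to 0.062 for Atic and -0.76 to 1.51 for Folr1 between monolayers, and, for the interaction, -0.0041 to 0.20 for Mthfd1, -0.078 to 0.11 for Tk1 and -0.085 to 0.11 for Dut. The log2 ratio of Fpgs to Ggh in SI culture ran from -0.12 to 0.40.

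With the replicate number as a block, 1, 3, 3, 2 and 2 members were called, in the order above. No pairing by replicate number was seen in deviations from group means. Their r for equal numbers ran from -0.0516 to 0.0563 over 12 pairs, of which 0 exceeded 0.1. With 3 libraries a group this does not settle whether equal numbers mark the same mouse, which the sources used here do not state. Low counts leave Folr1 imprecise and Folr2 and Izumo1r untested, and 3 libraries a group limit every comparison.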
